A study of Homo sapiens with 8 samples.

Results

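Newly made RNA was compared between U2OS libraries with very high and with low reads of ADAR, the enzyme that edits adenosine to inosine in double-stranded RNA. U2OS is an established human osteosarcoma cell line, and the assay, TT-seq, reads RNA that took up the uridine analogue 4-SU while cells were exposed to it. The study has 4 groups of 2 libraries, labelled WT, Zab (a construct that the labels do not describe), MYC O/E (overexpression of the transcription factor MYC) and Zab + MYC O/E, called WT, Zab, MYC and MYC_Zab below. All groups share the cell line, and the labels give no clone, vector, dose or labelling time. The 4 libraries labelled WT or MYC_Zab were pooled as ADAR-high and the 4 labelled Zab or MYC as ADAR-low. Genes were then taken whose difference between the ADAR-high mean and each ADAR-low group had the same direction, which held for 7042 of 11985 genes tested, out of 19414 listed. Within them, 388 core members also differed at least 2-fold, with an adjusted p under 0.05, from both ADAR-low groups. The pools were chosen by their ADAR level and the genes by these same differences, in log2(CPM + 1), so both are given as a description and not as a test.

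As background, ADAR is made from a promoter that is always active and from one that interferon induces, and its longer form carries the Z-nucleic-acid-binding domains named Zαβ. By editing cellular double-stranded RNA it keeps sensors such as MDA5, PKR and ZBP1 quiet. Zαβ alone is a tool that binds the left-handed Z form of DNA and RNA.

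ADAR itself set the pools apart by a wide margin. Its level in CPM, the coding-exon read count scaled to a common library size, was 33914 and 33898 in the libraries labelled WT and 32282 and 32341 in those labelled MYC_Zab. It was 519 and 567 CPM in the libraries labelled Zab and 445 and 464 in those labelled MYC. The ADAR-high mean was 61.0 times the Zab mean and 72.8 times the MYC mean, and ADAR took 3.42% to 3.51% of reads in one pool against 0.0444% to 0.0516% in the other. Where along ADAR its reads lay was not analysed here, so reads of the cell's own gene and of any construct that holds ADAR sequence cannot be told apart. ADAR lies on chromosome 1 of hg19 from 154554534 to 154580662 on the minus strand. Among its 3 nearest listed genes on each side none was a core member. UBE2Q1, a ubiquitin-conjugating enzyme, differed from the ADAR-high mean by log2 0.03 against Zab and 0.02 against MYC, and PMVK, a mevalonate pathway kinase, by 0.06 and -0.02. The high signal was thus not seen in the neighbours that had enough reads to test, except that PBXIP1 was at -0.52 against Zab and 1.498 against MYC.

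MYC went against one label too. It had 776 and 752 CPM in WT, 752 and 772 in MYC_Zab, 917 and 1015 in Zab, and 6578 and 6606 in MYC. The libraries labelled MYC_Zab therefore lacked the overexpression that their label states, and the group names below mean labels only. Libraries held 1839960 to 4072059 recovered reads. Those labelled Zab had 6.44 and 6.66 coding-exon reads per 100 tags against 13.1 to 13.8 in all others. Replicates of a group differed about as much as counting in twos allows, with a chi-square per gene of at most 2.05. A WT with a MYC_Zab library gave 2.69 to 2.79, against 23.5 to 42.0 across the pools. A Zab with a MYC library, both ADAR-low, gave 31.4 to 34.3, so the ADAR-low groups differed from each other about as much as from the ADAR-high ones. Separate cultures are not named for the replicates, so every p-value here speaks only to library-to-library spread, which can be technical. Of 9 osteoblast or mesenchymal markers 5 had reads in every library and TWIST1 had none anywhere, with summed levels of 3045 to 3367 CPM in ADAR-high and 2360 to 3968 in ADAR-low libraries. Blood markers summed to at most 1.98 CPM in any library, with CD3E among those at 0 in all, and endothelial markers to at most 3.63 CPM. Epithelial markers summed to 1269 to 1401 CPM in ADAR-high libraries and from 867 (MYC) to 2485 (Zab) in ADAR-low ones, and neural markers to 102 to 112 and 101 to 173 CPM. Their part in the results was not tested.

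By direction alone, and again in the core, more members were higher than lower in the ADAR-high libraries, while of those past the adjusted p more were lower. By direction, 3807 genes (31.8% of those tested) were higher and 3235 (27%) lower than both ADAR-low groups. With an adjusted p under 0.05 against both there were 1094 higher (9.13%) and 1357 lower (11.3%). The core held 284 higher genes (2.37%) and 104 lower ones (0.868%), and in 278 and 100 of these no ADAR-high library overlapped an ADAR-low one. Over all genes tested, 1656 (13.8%) were higher and 1614 (13.5%) lower without such an overlap. The shares of members and of the core follow from the rule. Among the 6415 genes counted on 1 transcript in all 8 libraries the balance by direction was turned, with 1776 higher (27.7%) and 2001 lower (31.2%), while their core held 119 and 66. On the deposited scale, which keeps the authors' factor per library, the core split was 396 higher and 21 lower, and with library totals 392 and 54, or 94.96% and 87.9% higher against 73.2%. By direction 77.8% and 66.2% of members were higher on these scales against 54.1%. The deposited scale moves the median of all genes from log2 0.07 to 0.76 against Zab and from 0.02 to -0.33 against MYC, so changes below are relative to scaling by TMM, which takes most genes as level. All 388 core members kept their direction under every one of these scalings. A change of sign was barely possible, since the scalings moved the medians by less than the 2-fold that the core rule asks. Just inside the 2-fold threshold lay ACTR10 (log2 1.004 in the smaller difference), BRINP1 (1.003), PRKAR2A (-1.002) and SLC66A2 (-1.0003). Just outside lay TTC21B (0.9996), RIPK2 (0.999), PLK1 (-0.998) and FAM171A1 (-0.989).

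**Figure D1:**
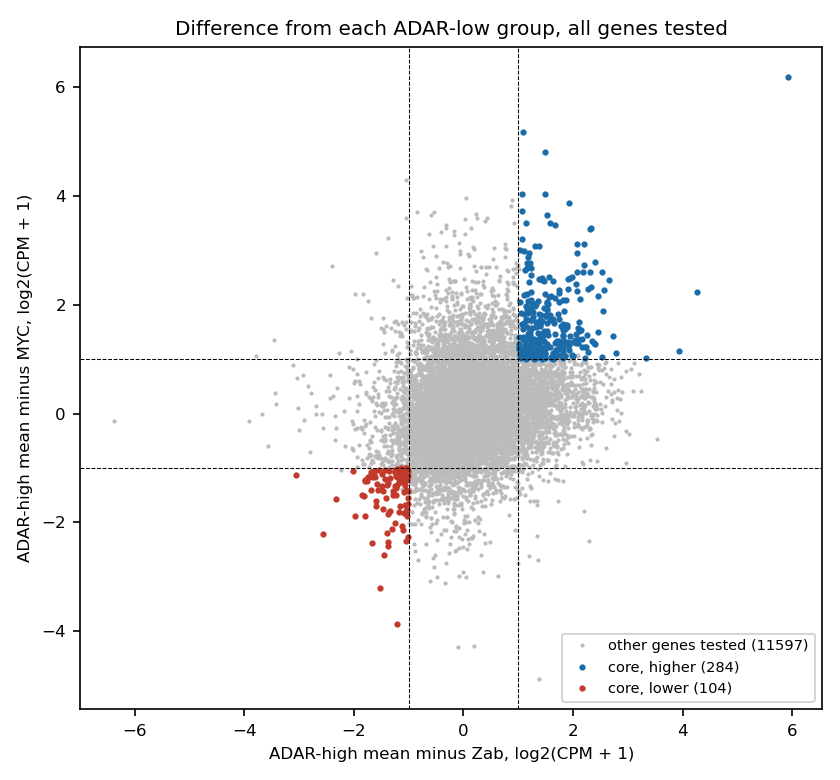
Each point is 1 of the 11985 genes tested, at its log2(CPM + 1) difference of the ADAR-high mean from Zab (x axis) and from MYC (y axis), and dashed lines mark 2-fold. The 284 core genes higher in ADAR-high libraries (blue) lie top right, the 104 lower ones (red) bottom left, and ADAR stands alone at 5.93 and 6.18.

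Stress-inducible HSP70 chaperones were among the leading lower members. HSPA6, which is made almost only under stress, had 0.648 and 0.715 CPM in WT and 1.04 and 1.49 in MYC_Zab, against 9.43 and 11.5 in Zab and 6.20 and 10.4 in MYC. It was 10.8-fold higher in Zab and 8.52-fold in MYC than in the ADAR-high mean, with 4 and 10 reads in all behind the WT and MYC_Zab values. HSPA1B stood at 66.1 and 61.5 CPM in WT and 72.7 and 65.5 in MYC_Zab, against 236 and 233 in Zab and 249 and 243 in MYC. No ADAR-high library came near an ADAR-low one, and the ratios were 3.52 and 3.70. HSPA1A was 2.98-fold higher in Zab and 2.47-fold in MYC. HSPA1A and HSPA1B code for nearly the same protein and stand next to each other on chromosome 6, so reads could be split between them. Their promoters, shown because the genes moved together, share 235 of 249 letters. Below are the 250 bases before each start (RefSeq, GRCh38.p14), at chr6:31815293-31815542 and chr6:31827488-31827737 on the plus strand, with CCAAT boxes in capitals (CCAAT on either strand, present in 35.3% of 9943 promoters of this length).
HSPA1A: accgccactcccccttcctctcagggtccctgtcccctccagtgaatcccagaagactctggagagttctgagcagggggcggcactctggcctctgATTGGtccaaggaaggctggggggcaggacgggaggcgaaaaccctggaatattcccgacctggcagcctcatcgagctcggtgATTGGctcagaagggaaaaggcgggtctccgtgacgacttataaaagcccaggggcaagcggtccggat
HSPA1B: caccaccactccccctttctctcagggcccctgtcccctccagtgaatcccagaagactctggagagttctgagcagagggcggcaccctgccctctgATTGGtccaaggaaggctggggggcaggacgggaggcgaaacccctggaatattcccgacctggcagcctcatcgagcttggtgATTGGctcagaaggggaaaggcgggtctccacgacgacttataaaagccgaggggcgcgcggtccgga

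Of the 28 tested genes of the heat shock list, 14 were lower and 2 higher than both ADAR-low groups, beside 27% and 31.8% over all genes. In the list 11 and 2 passed the adjusted p, beside 11.3% and 9.13% over all genes. Besides the HSP70 pair the lower ones held HSPA8, HSP90AB1, HSPB1, DNAJB1 and HSF1, the factor that switches the response on, and the higher ones were HSP90AA1 and DNAJB4. Their median difference was log2 -0.26 against Zab and -0.20 against MYC, beside 0.07 and 0.02 over all genes tested. On the deposited scale the median against Zab turned to 0.49, beside 0.76 for all genes.

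Replication-dependent histone genes, which are transcribed in S phase from short intronless genes, were lower in the ADAR-high libraries almost as a family. Of 48 tested, 42 were lower than both ADAR-low groups and 32 of these passed the adjusted p, while H2BC17 alone was higher in direction. Over all genes 27% were lower and 31.8% higher by direction, and 11.3% were lower past the adjusted p. The median difference was log2 -1.66 against Zab and -0.77 against MYC, and it stayed below 0 with library totals (-1.47 and -0.70) and with the deposited factors (-0.92 and -1.13). Of the 104 core lower genes 11 were such histones, and over all genes tested 0.868% were core lower. H3C2, a histone H3 gene, had 615 and 561 CPM in WT, 526 and 499 in MYC_Zab, 1893 and 1914 in Zab, and 1240 and 1325 in MYC. All 4 ADAR-high libraries were below, Zab was 3.46-fold and MYC 2.33-fold above their mean. H4-16, a histone H4 gene, had 22.7 and 21.5 CPM in WT, 22.3 and 24.8 in MYC_Zab, 131 and 106 in Zab, and 69.7 and 69.2 in MYC. The order Zab, MYC and then both ADAR-high groups held for H2AC20, H2AC12, H2AC13 and H2AC14 as well. Histone genes have near-identical copies, and the handling of reads that fit several copies is not stated in the labels or headers. H3C14 and H3C15 share coordinates and so the same reads, and H4C14 and H4C15 have equal values in all 8 libraries. Each of these pairs enters the counts of histone genes under both names.

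**Figure D2:**
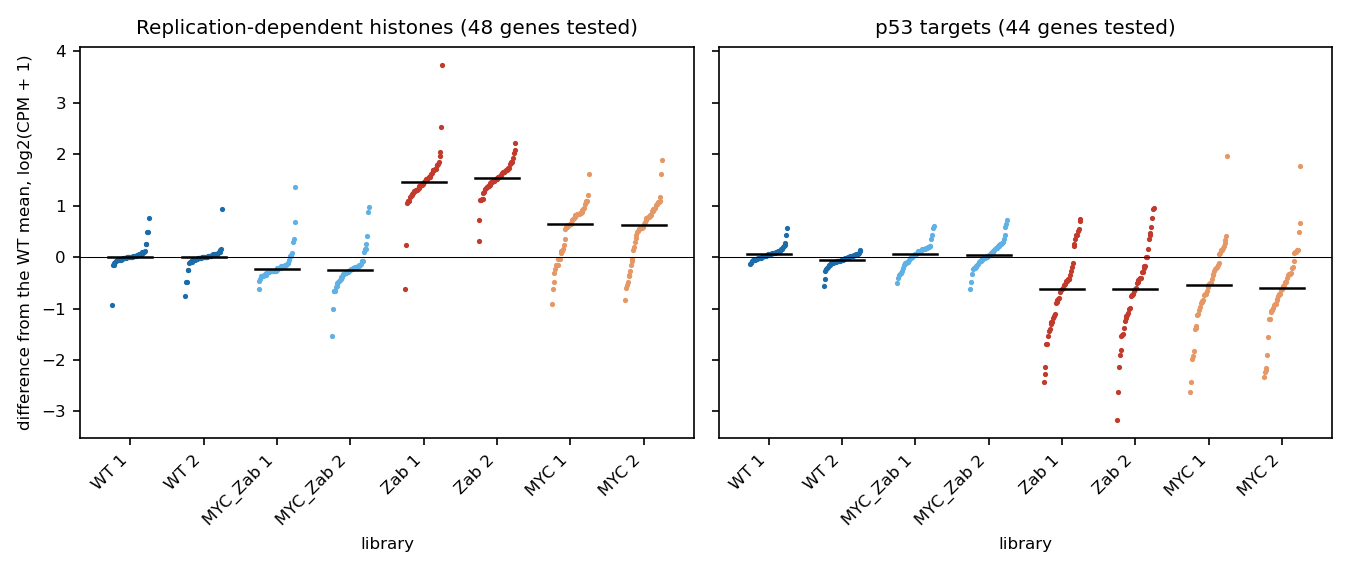
Difference of each gene from its WT mean in log2(CPM + 1) for all 48 replication-dependent histone genes (left) and all 44 p53 targets (right) that were tested, with 1 column of points per library and black lines at the median. Histone medians are 1.45 and 1.53 in the Zab and 0.64 and 0.63 in the MYC libraries, and p53 target medians lie between -0.53 and -0.61 in these 4.

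Many histone genes stand in pairs that face away from each other over a short shared region. Of 9 such pairs with starts under 1000 bases apart and both genes tested, both genes were lower in 7, and both passed the adjusted p in these 7. Both were core members in 2 pairs and 1 of the genes in 2 more. H2AC8 and both genes of the pair H2AC15 and H2BC15 had no shared direction against Zab and MYC. H2BC13 and H2AC13 start 268 bases apart and H2AC14 and H2BC14 start 304 bases apart, facing away from each other on chromosome 6 of hg19, and these are the pairs with both genes in the core. H2AC13 had 135 and 135 CPM in WT, 120 and 101 in MYC_Zab, 400 and 419 in Zab, and 290 and 260 in MYC. H2AC14 had 113 and 124, 85.4 and 84.9, 310 and 331, and 225 and 228 in the same order. The 250 bases before each start lie at chr6:27807923-27808172 on the plus strand and chr6:27814778-27815027 on the minus strand (RefSeq, GRCh38.p14), and 205 of 250 letters are the same. TATA boxes, searched as TATAAA on either strand and found in 5.25% of 9943 promoters of this length, are in capitals, and both genes have one 31 bases before the start.
H2AC13: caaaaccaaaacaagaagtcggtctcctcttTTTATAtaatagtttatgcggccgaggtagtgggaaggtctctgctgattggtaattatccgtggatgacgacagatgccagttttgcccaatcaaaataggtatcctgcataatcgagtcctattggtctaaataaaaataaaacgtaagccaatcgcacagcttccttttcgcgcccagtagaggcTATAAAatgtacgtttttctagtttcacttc
H2AC14: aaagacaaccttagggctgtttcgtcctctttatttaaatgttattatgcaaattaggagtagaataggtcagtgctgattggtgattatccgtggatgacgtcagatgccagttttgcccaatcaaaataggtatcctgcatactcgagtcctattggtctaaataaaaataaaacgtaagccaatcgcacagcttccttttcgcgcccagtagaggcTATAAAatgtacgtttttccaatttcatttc

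Genes of cholesterol synthesis were the other list that was lower nearly throughout. Of 30 tested, 24 were lower than both ADAR-low groups and 17 passed the adjusted p, with INSIG2 the only one higher in direction. The shares over all genes were 27% lower and 31.8% higher by direction, and 11.3% lower past the adjusted p. Medians were log2 -0.52 against Zab and -0.98 against MYC, but on the deposited scale the first turned to 0.21, beside 0.76 for all genes. INSIG1, which holds the SREBP factors back in the endoplasmic reticulum when sterols are plentiful, had 2.92 and 5.36 CPM in WT, 3.63 and 2.98 in MYC_Zab, 13 and 11.5 in Zab, and 42.6 and 40.6 in MYC. Zab was 3.29-fold and MYC 11.2-fold above the ADAR-high mean. LSS, which closes the sterol rings, stood at 43.7 and 33.3, 37.6 and 29.3, 79.0 and 68.6, and 119 and 128 CPM in the same order. SREBF2, the transcription factor that drives the pathway, had 138 and 137 CPM in WT, 137 and 129 in MYC_Zab, 286 and 273 in Zab, and 268 and 285 in MYC. Its groups did not overlap across the pools, and both ratios were near the threshold, at 2.07 and 2.05. The SREBF2 promoter, shown because SREBP factors act on their own gene, lies at chr22:41832855-41833104 on the plus strand (RefSeq, GRCh38.p14). A sterol element, searched as TCACNCCAC on either strand and found in 0.905% of 9943 promoters of this length, is in capitals 133 bases before the start.
SREBF2: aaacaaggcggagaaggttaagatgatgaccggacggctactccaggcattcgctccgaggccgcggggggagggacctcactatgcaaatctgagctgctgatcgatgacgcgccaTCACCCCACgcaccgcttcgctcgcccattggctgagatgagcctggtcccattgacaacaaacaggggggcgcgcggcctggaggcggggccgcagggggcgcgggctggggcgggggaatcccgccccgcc

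Most of the remaining leading lower members were regulators of transcription or signalling. CBX6, a chromobox protein of Polycomb complexes, had 256 and 233 CPM in WT, 275 and 272 in MYC_Zab, 813 and 750 in Zab, and 843 and 837 in MYC. It was the most highly read of the 10 leading lower genes, with ratios of 3.02 and 3.25 and standard errors of log2 0.05. CEBPD, a stress-responsive transcription factor, was 4.08-fold higher in Zab and 3.26-fold in MYC. UNC5B, a netrin receptor, was 3.04-fold higher in each, from a range of 8.94 to 22.0 CPM in ADAR-high and 43.6 to 46.1 in ADAR-low libraries. ZBTB12, a zinc finger protein, ARHGEF4, a guanine nucleotide exchange factor, and DIRAS1, a small GTPase, were 2.92-fold to 8.24-fold higher in the ADAR-low groups. Immediate early and ERK feedback genes were split, 10 higher and 8 lower of 38, with 2 and 5 past the adjusted p and medians of log2 -0.20 against Zab and 0.35 against MYC. Over all genes 31.8% were higher and 27% lower, with 9.13% and 11.3% past the adjusted p, so the list was near these shares. SRF and JUND were the core members of this list, both lower, with ratios of 2.13 and 2.39 and of 2.12 and 2.37. SDF2L1, an endoplasmic reticulum chaperone partner, was the only core gene of the unfolded protein response, at 23.3 and 26.5 CPM in WT, 27.5 and 22.8 in MYC_Zab, 222 and 206 in Zab, and 50.1 and 62.8 in MYC.

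**Figure D3:**
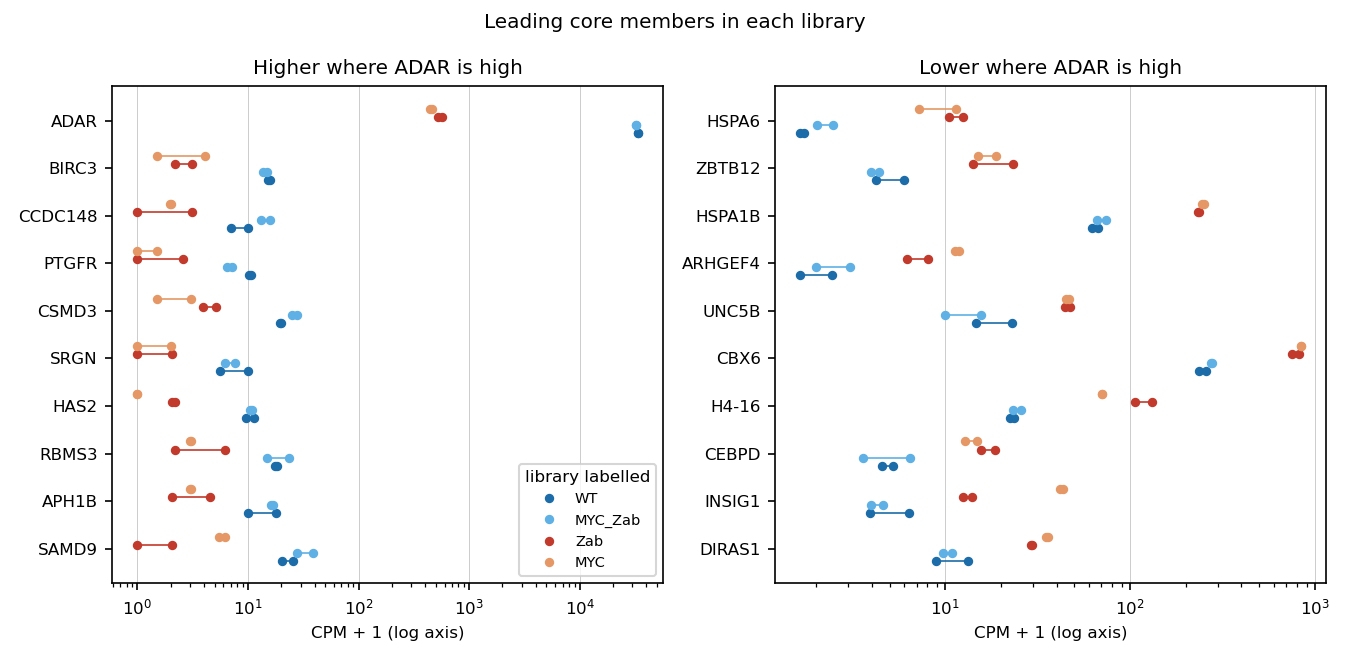
CPM + 1 on a log axis in each library for the 10 leading core genes higher (left) and lower (right) in ADAR-high libraries, with 1 row per group within a gene and a line joining its 2 libraries. WT and MYC_Zab points (blues) lie apart from Zab and MYC points (red and orange), as the rule asks, and most of the genes on the left other than ADAR lie below 30 CPM.

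Targets of the tumour suppressor p53 were the list with most higher members. Of 44 tested, 31 were higher and 4 lower than both ADAR-low groups, and 24 and 3 of them passed the adjusted p. Over all genes 31.8% were higher and 27% lower, with 9.13% and 11.3% past the adjusted p. Medians were log2 0.65 against Zab and 0.64 against MYC, and they stayed above 0 with library totals (0.82 and 0.71) and with the deposited factors (1.35 and 0.28). The lower ones that passed were GDF15, POLH and PHLDA3, and AEN was at log2 -0.39 and -0.099 without passing. FAS, a death receptor, had 20.1 and 14.7 CPM in WT, 26.5 and 18.6 in MYC_Zab, 5.89 and 4.19 in Zab, and 4.13 and 7.91 in MYC. Its pools did not overlap, with ratios of 3.96 over Zab and 3.31 over MYC. GADD45A, a growth arrest gene, stood at 167 and 160, 178 and 149, 66.0 and 71.2, and 40.8 and 43.3 CPM in the same order. BTG2, an antiproliferative gene, had 174 and 178, 173 and 153, 60.1 and 73.3, and 79.5 and 84.3 CPM. PRDM1 and TLR3 completed the 5 core p53 targets. CDKN1A, the cell cycle inhibitor p21, passed the adjusted p without reaching 2-fold, at log2 0.45 and 0.88, and MDM2, the ubiquitin ligase of p53, was 2.18 above Zab but only 0.30 above MYC.

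The antiviral genes were mixed. Of 36 tested interferon-stimulated genes 18 were higher and 3 lower, and 9 and 0 passed the adjusted p. Their median was log2 0.07 against Zab, as for all genes, and 0.62 against MYC. SAMD9, an interferon-induced restriction factor, had 24.6 and 19.3 CPM in WT, 27.0 and 37.7 in MYC_Zab, 0 and 1.05 in Zab, and 5.16 and 4.45 in MYC. It was nearly unread in Zab, with 2 reads in all, and 5.65-fold lower in MYC than in the ADAR-high mean. Its neighbour and relative SAMD9L had 4.29 to 9.07 CPM in ADAR-high libraries and at most 1.05 in ADAR-low ones. PARP14, an ADP-ribosyltransferase, was 2.75 and 2.37 times its ADAR-low means, and GBP3, a guanylate-binding protein, 3.03 and 20.2 times. Among sensors of double-stranded RNA and Z-form nucleic acids, 7 of 25 were higher and 6 lower, with 3 and 3 past the adjusted p, near the shares over all genes of 31.8% and 27% by direction and 9.13% and 11.3% past the adjusted p. TBK1, the kinase that relays such signals, had 37.9 and 36.8 CPM in WT, 52.2 and 44.4 in MYC_Zab, 7.66 and 6.81 in Zab, and 15.7 and 18.3 in MYC. TLR3, the endosomal sensor, had 2.48 to 3.89 CPM in ADAR-high libraries, no read in Zab and 6 reads in MYC. It was 3.95-fold higher than Zab with 3 reads over the group as the limit, and less so with a limit that allows for counting in twos. CASP8 was also higher, and ILF2 and TRIM25 were among the lower ones. The median of the sensors against MYC was 0.33, or 0.17 with genes at 0 reads placed at their limit. EIF2AK2, which codes for the sensor PKR, was 0.85 above Zab and 0.13 above MYC and did not pass the adjusted p in both. Of the other deaminases APOBEC3C was higher and AMPD2 and DCTD lower, and ADARB1 was 0.51 and 0.62 below without passing.

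The leading higher members after ADAR were genes of several kinds. BIRC3, an inhibitor of apoptosis in NF-kB signalling, had 14.9 and 14.3 CPM in WT, 14 and 12.7 in MYC_Zab, 1.18 and 2.09 in Zab, and 3.10 and 0.495 in MYC. The ratios were 8.53 and 7.78, from 6 reads in Zab and 14 in MYC. CCDC148, which codes for a coiled-coil protein, had 9.07 and 6.08 CPM in WT, 12.2 and 14.9 in MYC_Zab, 0 and 2.09 in Zab, and 1.03 and 0.989 in MYC. HAS2, which makes hyaluronan, had 8.58 to 10.4 CPM in ADAR-high libraries, 1.18 and 1.05 in Zab and no read in MYC. Its MYC level was 25.2-fold below with 3 reads over the group as the limit, and less so with a limit that allows for counting in twos. PTGFR, a prostaglandin receptor, SRGN, a granule proteoglycan, and CSMD3, a large membrane protein, were higher by log2 2.32 to 2.40 against Zab and 2.33 to 3.41 against MYC, with 2 to 13 reads in each ADAR-low group. INHBA, the activin A subunit, was read more deeply, at 152 and 155 CPM in WT, 160 and 159 in MYC_Zab, 42.4 and 38.2 in Zab, and 8.26 and 11.4 in MYC. APH1B, a subunit of gamma-secretase, was 6.19 and 7.02 times its ADAR-low means.

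Targets of the YAP and TEAD factors held 16 higher and 4 lower genes of 29, with 8 and 1 past the adjusted p. Over all genes 31.8% were higher and 27% lower, with 9.13% and 11.3% past the adjusted p. ANKRD1, a classic YAP target, had 178 and 181 CPM in WT, 165 and 171 in MYC_Zab, 51.3 and 72.3 in Zab, and 7.74 and 11.9 in MYC. F3, the tissue factor that starts coagulation, had 11.9 to 18.2 CPM in ADAR-high libraries, 3.54 and 5.24 in Zab, and 0 and 0.989 in MYC. RBMS3, an RNA-binding protein, was 5.45 and 8.65 times its ADAR-low means. The list median was log2 0.20 against Zab and 0.30 against MYC, and on the deposited scale -0.01 against MYC, beside -0.33 for all genes. Genes of iron handling and NRF2 were split, 11 higher and 11 lower of 29, with 4 and 8 past the adjusted p. HMOX1, the haem-degrading enzyme, stood among the higher ones at 320 and 322 CPM in WT, 312 and 308 in MYC_Zab, 132 and 148 in Zab, and 66.6 and 68.5 in MYC. GCLM, of glutathione synthesis, was 2.21 and 2.34 times its ADAR-low means.

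The growth lists were lower against MYC more than against Zab. Of 49 canonical MYC targets 29 were lower and 1 higher, with 24 and 0 past the adjusted p, and the median was log2 -0.17 against Zab and -0.57 against MYC. Against Zab it turned to 0.02 with library totals and to 0.57 on the deposited scale. BOP1, of ribosome assembly, was the only core member, with 277 to 334 CPM in ADAR-high libraries and 611 to 703 in ADAR-low ones. Ribosome biogenesis had 29 lower and 6 higher of 62, with 20 and 1 past the adjusted p, and medians of 0.08 and -0.40. The unfolded protein response showed medians of -1.18 against Zab and 0.17 against MYC, and NF-kB genes -0.62 and 1.04, so these lists did not share a direction across the ADAR-low groups. Matrix and adhesion genes were also split, at -0.26 and 0.74. For the FACT complex and other histone chaperones, which the series title names, 8 of 28 were higher and 8 lower, with 4 and 5 past the adjusted p and no core member. Ribosomal protein genes had 23 higher and 30 lower of 75, with 11 and 14 past the adjusted p. Over all genes 31.8% were higher and 27% lower, with 9.13% and 11.3% past the adjusted p.

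**Figure D4:**
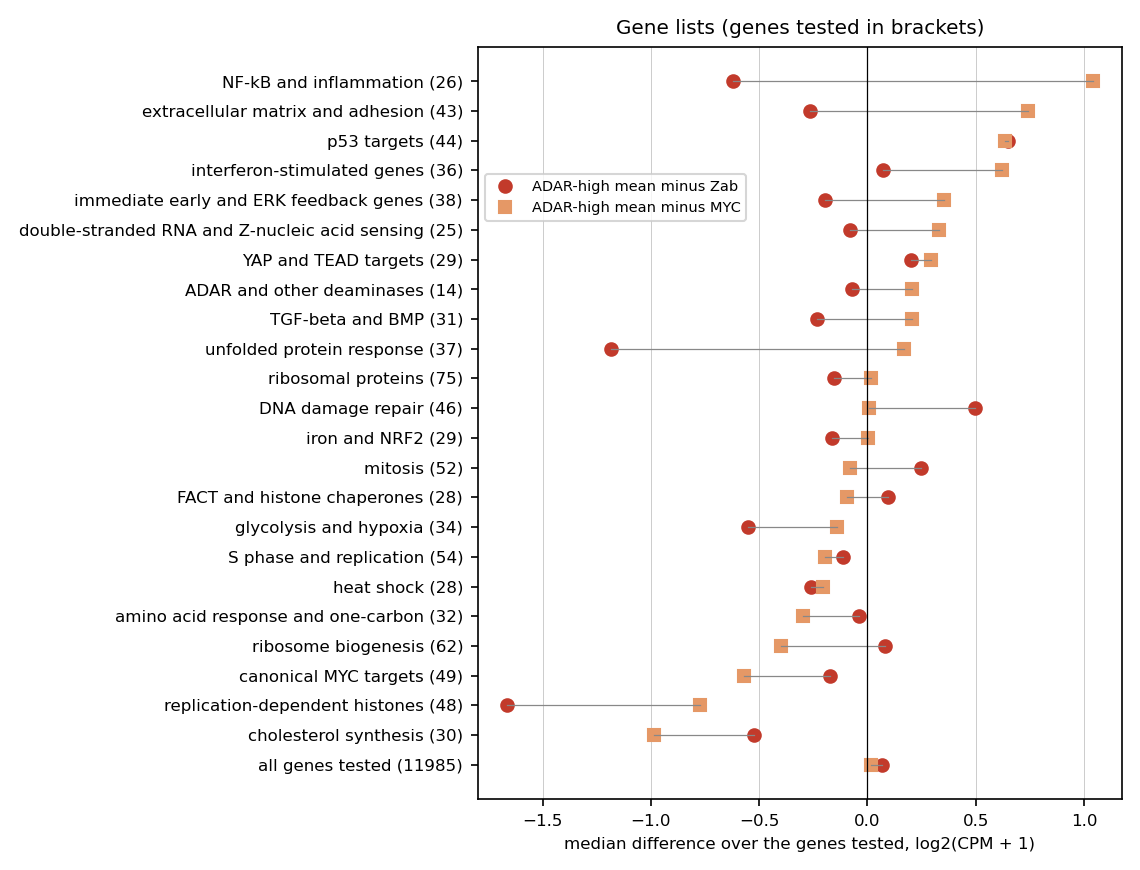
Median log2(CPM + 1) difference of the ADAR-high mean from Zab (circles) and from MYC (squares) over the tested genes of each list, with the number tested in brackets and all 11985 genes at the bottom. Histones (-1.66 and -0.77) and cholesterol synthesis (-0.52 and -0.98) lie left of 0 and p53 targets (0.65 and 0.64) right of it in both, while NF-kB genes (-0.62 and 1.04) lie on both sides.

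The difference inside the ADAR-high pool, MYC_Zab over WT, was left free by the rule, which used only the mean of both groups. It passed limma's adjusted p for 16 higher (0.134%) and 53 lower genes (0.442%) of all tested. On the deposited scale these were 1749 and 3, and with library totals 19 and 32. The total of 69 moved to 22 to 33 when 1 library labelled WT or MYC_Zab was left out, to 45 without a MYC library and to 154 or 155 without a Zab library. Of the 284 core higher genes limma called 0, with 11 at an unadjusted p under 0.05, and on the recovered reads edgeR called 3 and DESeq2 1. Of the 104 core lower genes limma called 3, all histones and all lower in MYC_Zab, with 18 at an unadjusted p under 0.05. Among these 104, edgeR called 4 and DESeq2 3. Over all 11985 genes tested, limma had 920 at an unadjusted p under 0.05. That share is above the one of core higher genes and below the one of core lower genes. H2AC14 fell by 0.47 ± 0.09 on the log2 scale (SE, 2 libraries a group, adjusted p = 0.0052), H2BC14 by 0.36 (adjusted p = 0.0132) and H2AC12 by 0.26 (adjusted p = 0.015). None of the 3 calls held in every fit with 1 library left out. H2AC14 missed the threshold without the second WT library (-0.41) or either MYC_Zab library (-0.48 and -0.47), and H2BC14 without the second WT (-0.28), the second MYC_Zab (-0.27) or either MYC library (-0.36). H2AC12 missed it without either WT library (-0.25 and -0.27), the second MYC_Zab (-0.21) or either MYC library (-0.26). Over the whole list 14 of 48 histones were lower and 0 higher in MYC_Zab, the largest such count of any list. On the deposited scale 0 were lower and 1 higher, and when each of the WT and MYC_Zab pairs counted as 1 sample no gene passed limma's adjusted p, with 199 at an unadjusted p under 0.05 and 146 called by edgeR on the separate libraries. Sizes differed little: the median absolute difference was log2 0.18 over core higher and 0.19 over core lower genes, beside 0.14 over all tested.

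Inside the ADAR-low pool most core members did not pass the test. MYC over Zab passed limma's adjusted p for 3669 higher (30.6%) and 3099 lower genes (25.9%) of all tested, and on the deposited scale for 8999 and 599. Of the 284 core higher genes 28 were higher in MYC, 43 lower and 213 were not called, and of the 104 core lower genes 22, 16 and 66. These shares of 9.86% and 15.1%, and of 21.2% and 15.4%, are below those over all genes. They are a description, since MYC minus Zab is the gap between the same 2 differences that the rule used and is bounded by it. MMP3, a matrix protease, fell furthest, by 4.09 ± 0.14 on the log2 scale (SE, adjusted p = 1.85e-19), from 119 and 150 CPM in Zab to 5.68 and 8.41 in MYC, below 277 to 301 in the ADAR-high libraries. ESM1, a secreted proteoglycan, fell by 3.31 (adjusted p = 5.23e-09), SLFN5, a Schlafen protein, by 2.96 (adjusted p = 1.2e-12), and TRIML2 by 2.65 (adjusted p = 3.41e-08). For these the Zab libraries lay between the MYC and the ADAR-high ones.

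Other members had the opposite order, with Zab lowest. STXBP3, SMC6, SAMD9 and INSIG1, like MMP3, ESM1, SLFN5 and TRIML2 above, were named for the size of MYC minus Zab among core members. The p-values of MYC minus Zab for core members are thus a description too, since the rule used the differences that make it up. STXBP3, a syntaxin-binding protein, was 2.79 ± 0.38 higher in MYC than in Zab (log2, SE, adjusted p = 4.52e-07), at 8 and 9.89 against 0 and 1.05 CPM, with 15.7 to 27.3 in ADAR-high libraries. SMC6, of a chromosome maintenance complex, rose by 2.31 (adjusted p = 8.31e-08), SAMD9 by 2.02 (adjusted p = 7.07e-05) and KIF18A, a mitotic kinesin, by 1.67 (adjusted p = 6.12e-06). Among lower members INSIG1 rose by 1.69 (adjusted p = 1.46e-04). SDF2L1 fell by 1.91 (adjusted p = 7.47e-11). Of 48 histones 42 were lower in MYC than in Zab and 0 higher, beside 25.9% and 30.6% over all genes. Other lists leaned the same way, with 30 lower and 2 higher of 37 unfolded protein response genes. Of 26 NF-kB genes 21 were lower and 1 higher, and of 43 matrix and adhesion genes 32 and 3. Ribosome biogenesis leaned the other way, with 3 lower and 41 higher of 62. On the deposited scale 22 histones were higher and 7 lower, so their order depends on the scaling. HSPA1B differed between MYC and Zab by 0.07 (adjusted p = 0.572) and CBX6 by 0.10 (adjusted p = 0.139). Their distances from the ADAR-high mean were larger, but the rule asks at least 2-fold of every core member.

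Core members differed in the length of genome that they span, which the rule did not use. The transcript counted spanned a median of 59858 bases in core higher and 10103 in core lower genes, beside 29406 over all tested. Over 100 kb were 37.3% of core higher and 4.81% of core lower genes against 17.8% of all, and under 5 kb 4.58%, 36.5% and 9.76%. From genes up to 5 kb to those over 200 kb the share of core higher genes went from 1.1% to 6.73% and that of core lower genes from 3.25% to 0.125%. The median of all genes moved along span too, from log2 -0.35 to 0.41 against Zab and from -0.04 to 0.26 against MYC, and between WT and MYC_Zab only from -0.01 to 0.02. With the trend along span taken out, the core held 181 higher and 127 lower genes, 171 and 76 of them shared with the core as first chosen. The level differed as well, with a median of 10.8 CPM over core higher and 43.3 over core lower genes against 33.8 over all. The part of span and level in the differences was not tested.

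**Figure D5:**
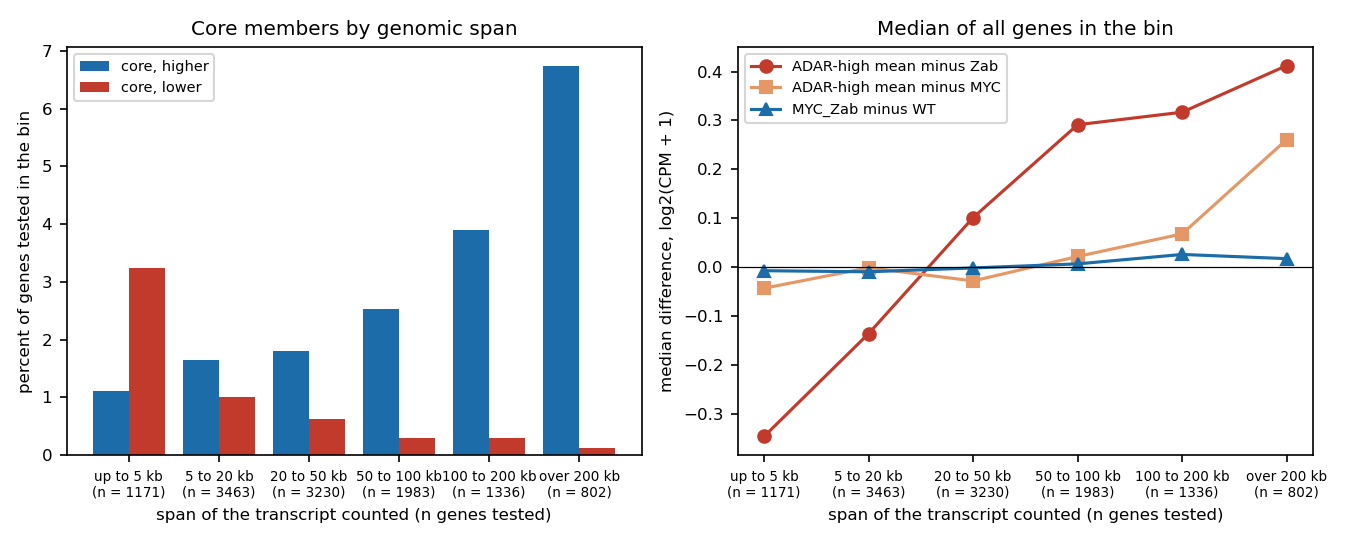
Left, bars give the percent of tested genes in each bin of genomic span that are core higher (blue) or core lower (red). Right, points give the median log2(CPM + 1) difference of all genes in the bin from Zab, from MYC, and of MYC_Zab minus WT, and core higher shares go from 1.1% to 6.73% with span while core lower ones go from 3.25% to 0.125%.

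Some core members were neighbours. Among listed genes, 19 adjacent pairs were both core members in 1 direction, 11 higher and 8 lower, and 5 of these faced away from each other. Adjacent here means next in order, with gaps of up to 1743480 bases (NEGR1 and LRRIQ3). Of those facing away, TFAP4 and GLIS2 start 41738 bases apart. H3C14 and H3C15 are 1 locus listed under 2 names. The share over all adjacent pairs was not computed. Besides the histone pairs and HSPA1A with HSPA1B, the pairs held SAMD9 with SAMD9L, ACTA2 with FAS, whose starts overlap, and CD274 with PDCD1LG2, which code for both ligands of the immune checkpoint receptor PD-1. CD274 had 44.1 and 42.5 CPM in WT, 43.9 and 43.7 in MYC_Zab, 16.5 and 22.0 in Zab, and 4.13 and 1.98 in MYC. ICOSLG and LOC102723996 overlap each other, and their reads could not be told apart.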

How the data were processed

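The deposited values are a scaled signal. Per the file headers, the authors used HOMER to count tags on exons of coding RefSeq genes (hg19, opposite strand), choosing 1 transcript per gene in each library. Per the submitters' processing notes, the tools include bedtools 2.29.2, STAR and Trim Galore 0.6.6, and the builds hg19 and dm6. Values were whole multiples of 1 step per library, so whole reads were recovered (at least 99.9% whole within 0.02 reads), and no label or header gives the basis of the factor per library. Whether it rests on reads of dm6, a fly genome, is not stated. If it does, the deposited scale and not TMM would be the one set against an added standard. TMM factors (edgeR 4.0.16) turned the deposited values into CPM. Genes passed filterByExpr at 10 recovered reads. All 8 libraries entered 1 limma 3.58.1 fit on log2(CPM + 1) with a trended variance and a term per group (R 4.3.3, 4 residual degrees of freedom), Benjamini-Hochberg adjusted. Fold changes on that scale understate changes of low genes. Folds written as "-fold" or "times" are ratios of mean CPM, and a group with no read is set at 3 reads. Of recovered counts from 1 to 20, 77.2% to 82.7% were even in each library, so reads came mostly in twos. A limit of 3 reads is then low, and folds that rest on it may be overstated. edgeR and DESeq2 1.42.0 on recovered reads were alternatives, and the fit was tested on simulated reads. Replicate numbers did not pair the samples, since deviations correlated at -0.02 to 0.01.

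The members and lists were chosen with earlier results of these data known. Named genes are the 10 leading core members each way with at least 5 CPM, up to 3 per list and direction, the 5 with the largest difference each way within a pool, those at the threshold, ADAR's neighbours, and MYC. Other genes of the lists were named after their values were seen, and some genes that the rule takes are not reported here. Promoters are RefSeq's most upstream window of a gene, matched for 9943 of 11985 genes. Only 79.6% of core higher and 76.9% of core lower genes had one, so comparing promoter letters over the core is void and is not reported.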

Additional observations from a re-analysis of the deposited data

Results flagged for a closer look

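In 280 of the 284 core higher genes every Zab library lay below every WT library while every MYC_Zab library lay above every MYC library. In 102 of the 104 core lower genes both orders were turned round. The difference of these effects was not tested, since the choice of members fixes it. The same choice made these orders likely beforehand, and their share over all genes tested was not computed.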

How the results depend on the processing

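Every core member that was tested kept its direction under each alternative, which the 2-fold rule made likely beforehand. All 388 were tested in most of them. A filter at a mean of 5 CPM left 304, and genes counted on 1 transcript 185. The count of core lower genes moved from 104 to 54 with library totals, 21 on the deposited scale and 51 with a pseudocount of 5, which left 104 core higher. Lower members by direction went from 3235 to 1002 on the deposited scale. Asking for all 4 differences between groups left 179 core higher and 58 lower, a 1.5-fold threshold gave 685 and 499, 3-fold 48 and 6, and taking out the trend along span gave 181 higher and 127 lower. Genes counted on 1 transcript in all libraries, an alternative chosen after seeing the data, gave 1776 higher and 2001 lower members, 119 and 66 core, and 3761 calls in MYC over Zab. Fewer genes were tested, but the balance by direction turned too, since 53.5% of tested genes, 46.7% of higher and 61.9% of lower members were kept. The 69 calls in MYC_Zab over WT became 1752 on the deposited scale, 17 without the filter, 146 with edgeR, 118 with DESeq2 and 0 with each pair as 1 sample. Apart from these built-in reasons, the cause was not tested.

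Leaving out 1 library gave 22 (without the second MYC_Zab library) to 155 (without the first Zab library) calls in MYC_Zab over WT, 5410 to 6745 in MYC over Zab, 227 to 305 core higher, 87 to 120 core lower, 3803 to 4023 higher and 3240 to 3399 lower members. With 1 library left, a group is assumed to vary like the others. The replicate block gave 388 core members, 387 of them shared, and changed no call by over 1.5 times. On the deposited scale MYC minus Zab turned to 0.85 for ADAR, 0.055 for HMOX1, 0.34 for H4-16, 0.83 for HSPA1A, 0.55 for H2AC20 and 0.54 for H3C2, and MYC_Zab minus WT to 0.011 for H2AC12. Depth limits the 10 leading core higher genes, which except ADAR had at most 38 reads in an ADAR-low group.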

Other observations

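Some families outside the lists were looked at after their values were seen, so they carry no test. Genes of the cilium were mostly higher in the ADAR-high libraries. Of 14 genes of Bardet-Biedl syndrome and the BBSome, which carries cargo in cilia, 13 were higher than both ADAR-low groups and 0 lower, with 5 past the adjusted p, and of 21 genes of intraflagellar transport 13 were higher and 0 lower, with 6 past it. BBS7 had 22.7 and 27.5 CPM in WT, 24.7 and 23.1 in MYC_Zab, 13 and 8.38 in Zab, and 12.9 and 10.1 in MYC. IFT88 had 9.08 to 11.9 CPM in ADAR-high and 2.09 to 3.71 in ADAR-low libraries. These counts compare with 31.8% higher and 27% lower over all genes, and with 9.13% and 11.3% past the adjusted p. The median span was 27154 bases for the Bardet-Biedl and BBSome genes and 79838 for the intraflagellar transport genes. The latter had medians of log2 0.57 against Zab and 0.55 against MYC, beside 0.29 and 0.02 over all genes of 50 to 100 kb. The part of span was not tested.

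Of 15 genes of coagulation factors and receptors 9 were higher and 1 lower, with 8 and 0 past the adjusted p, beside 9.13% and 11.3% over all genes. F2RL2, a thrombin receptor relative, had 31.8 to 36.3 CPM in ADAR-high and 5.24 to 10.9 in ADAR-low libraries, and TFPI, which holds tissue factor back, 32.9 to 49.6 and 9.43 to 22.7. RGS genes, which shorten G protein signals, held 7 higher and 0 lower of 13, beside 31.8% and 27% over all genes. RGS2 had 27.2 to 37.6 CPM in ADAR-high libraries, 17.7 and 11.5 in Zab and 3.10 and 3.21 in MYC. SLFN12 was 3.76 and 4.14 times its Zab and MYC means.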
